A study of Mus musculus with 18 samples.

Results

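The genes of the mitochondrial chromosome are described here in liver and in epithelium from both parts of the intestine of transplanted mice. All rows of the deposited count table that lie on chromosome M were taken, whatever their counts, which gave 37 of 53379 genes: 13 protein-coding genes, 2 rRNA genes and 22 tRNA genes. The mice were female BALB/cJ, an inbred laboratory strain, aged 6 to 8 weeks, and all of them were lethally irradiated and received bone marrow. The BMT arm was given 10000000 bone marrow cells together with 1000000 T cells, and the BM arm was given 10000000 bone marrow cells alone. Tissue was taken on day 7 after transplantation from both arms, as bulk liver, as epithelial cells titled small intestine and as epithelial cells titled large intestine, with 3 libraries of each arm in each tissue and 18 in all. Each tissue carries 6 mouse numbers in its descriptions, 3 an arm, and equal numbers are read here as 1 mouse. Separate animals are not spelled out as the source of the replicates, and a p-value here covers no more than the spread among the libraries, which may be technical. Which strain gave the marrow and the T cells was not found in the labels.

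The mitochondrial genome is a small circular DNA that is transcribed from both strands into long precursors. The tRNAs between the other genes are cut out of these precursors, which frees the mRNAs and rRNAs, and most of the mRNAs and both rRNAs then receive short adenine tails. The mRNAs encode the core of complex I (mt-Nd1 to mt-Nd6 and mt-Nd4l), cytochrome b of complex III (mt-Cytb), the core subunits of cytochrome c oxidase, complex IV (mt-Co1, mt-Co2 and mt-Co3), and part of the membrane sector of ATP synthase, complex V (mt-Atp6 and mt-Atp8). All other subunits, and every protein that copies, transcribes, processes and translates this genome, come from nuclear genes.

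Library totals ran from 18845483 to 25610937 counts, of which 653355 to 2747874 lay on mitochondrial genes. A count of 3 in a library, the largest true count that a count of 0 allows, stood at 0.117 to 0.159 CPM (counts per 1000000 library counts), and such floors and intervals cover counting error only. The column names place 4 libraries on lane 1 and the others on lane 2, among them 1 library of each arm in liver (BMT replicate 2 and BM replicate 3) and 1 BMT library in each intestinal set. Hepatocyte markers summed to 119756 to 137261 CPM in liver BMT and 108875 to 169403 CPM in liver BM. The intestinal labels are in conflict, since the code LI goes with the title small intestine and the code SI with the title large intestine. Large intestine markers summed to 6111 to 9317 CPM in BMT and 11648 to 12700.3 CPM in BM of the libraries titled small intestine (code LI), and to 492 to 978 CPM in BMT and 325 to 826 CPM in BM of the libraries titled large intestine (code SI). Small intestine markers ran the other way, at 253 to 450.2 CPM (BMT) and 399 to 445 CPM (BM) under code LI and 7582 to 13359 CPM (BMT) and 19281 to 26561 CPM (BM) under code SI. The markers therefore go against the titles, and both names are given with every intestinal value.

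A stretch of chromosome 1 carries nuclear copies of mitochondrial DNA, and where copy and original have the same letters a read cannot be assigned to either. Of the stretches of 100 bases (the length of 1 read) within each gene, the share found letter for letter in a nuclear transcript was 99.9% for mt-Co3, 99.5% for mt-Co2, 99.5% for mt-Atp6, 98.5% for mt-Nd4l and 97.6% for mt-Nd3. It was 60.8% for mt-Nd4, 30.8% for mt-Co1, 3.19% for mt-Nd2 and 0% for the other 5 protein-coding genes and both rRNA genes. The copy of mt-Nd3, Gm28438 (GRCm38 chromosome 1, 24612775 to 24613119, minus strand), differs from it at 1 position, T3C, counted from the first base of mt-Nd3. The first 23 bases of both are shown because they hold this only difference between them over 345 aligned bases, with the differing base in capitals (mt-Nd3 at chrM:9459-9481, plus strand, and Gm28438 at chr1:24613097-24613119, minus strand, both GRCm38).
mt-Nd3: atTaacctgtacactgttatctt
Gm28438: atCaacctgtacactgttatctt
The copies of mt-Co2 (Gm28661), mt-Atp6 (Gm10925), mt-Co3 (Gm28437) and mt-Nd4l (Gm10222) had 0 differences over 681, 678, 783 and 294 aligned bases, and their transcripts end a few bases before the mitochondrial genes do.

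The 5 genes shared almost whole with such copies had few counts per base. Over the 18 libraries mt-Co3 held 82.1, mt-Co2 66.2, mt-Atp6 46.9, mt-Nd4l 9.82 and mt-Nd3 9.35 counts per base. The mRNA genes shared in part held 8812 (mt-Co1), 1379.5 (mt-Nd2) and 862 (mt-Nd4), and those with none shared 3107 (mt-Cytb), 2749 (mt-Nd1), 906 (mt-Nd6), 765 (mt-Nd5) and 35.7 (mt-Atp8). mt-Atp8 is the exception in that list: it lies between mt-Co2 and mt-Atp6, and the stretch of chromosome 1 between their copies is not in the transcripts used here. Over the 18 libraries mt-Atp6 held 31931 counts and its copy Gm10925 31963, and mt-Co2 held 45309 and Gm28661 27564, whereas mt-Co1, shared in part, held 13615270 and Gm29216 48237. The treatment of reads with several positions is not given. The levels of mt-Co2, mt-Co3, mt-Atp6, mt-Atp8, mt-Nd3 and mt-Nd4l relative to other genes are therefore uncertain, and their fold changes are those of the reads that were assigned to them.

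**Figure D1:**
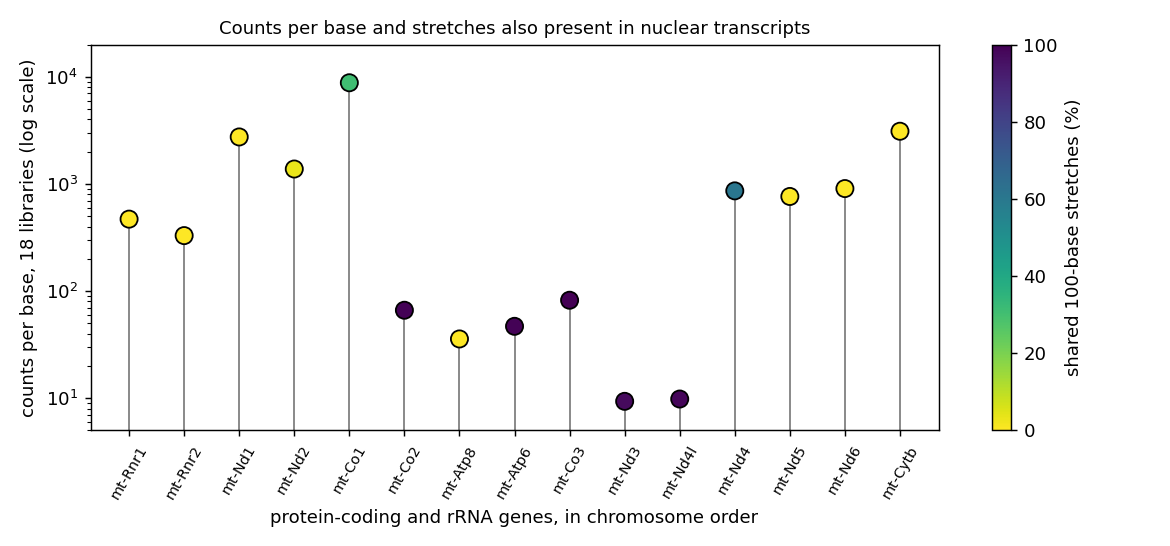
Counts per base summed over 18 libraries (log scale) for the 13 protein-coding and 2 rRNA genes in chromosome order, each point coloured by the share of its 100-base stretches found in nuclear transcripts. The 5 darkest points, at 97.6 to 99.9% shared, lie at 9.35 to 82.1 counts per base, while mt-Co1 reaches 8812.

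Genes also touch or overlap on this compact chromosome. mt-Atp8 and mt-Atp6 share 43 bases on the same strand in different reading frames, and a read inside them matches both genes. The shared stretch is shown in capitals with 20 bases on each side (chrM:7907-7989, plus strand, GRCm38), because reads over it overlap both of these 2 neighbours.
mt-Atp8 and mt-Atp6: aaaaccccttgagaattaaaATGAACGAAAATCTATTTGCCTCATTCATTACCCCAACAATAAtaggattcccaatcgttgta
mt-Nd5 and mt-Nd6 overlap by 14 bases on opposite strands and mt-Nd4l and mt-Nd4 by 7 bases on the same strand. Without a stated strand setting, reads over an opposite-strand overlap cannot be assigned either.

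The tRNA genes held 81255 counts over all 18 libraries, and mt-Tp alone, the proline tRNA, took 74.7% of them. The 8 tRNA genes on the minus strand held 94.6% of tRNA counts, and 7 of the 22 had at most 3 counts in any library. Each tRNA gene is shorter than 1 read, and mature tRNAs carry no adenine tail. The genes that had a mean of at least 5 CPM in a tissue (mt-Tp, mt-Tn, mt-Tc, mt-Te and mt-Tl1), or whose values are compared between arms or tissues (mt-Ti, mt-Tq and mt-Tm, chosen after their values were seen), are shown with the anticodon in capitals, as GENCODE transcripts on GRCm38.
mt-Tp (chrM:15356-15422, minus strand): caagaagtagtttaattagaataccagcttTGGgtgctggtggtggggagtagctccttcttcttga
mt-Tn (chrM:5089-5159, minus strand): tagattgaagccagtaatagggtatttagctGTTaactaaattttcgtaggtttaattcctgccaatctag
mt-Tc (chrM:5192-5257, minus strand): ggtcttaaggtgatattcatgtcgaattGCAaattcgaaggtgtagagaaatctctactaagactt
mt-Te (chrM:14071-14139, minus strand): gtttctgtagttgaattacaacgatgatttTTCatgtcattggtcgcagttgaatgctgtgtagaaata
mt-Tl1 (chrM:2676-2750, plus strand): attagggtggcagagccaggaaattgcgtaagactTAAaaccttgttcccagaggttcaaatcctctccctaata
mt-Ti (chrM:3706-3774, plus strand): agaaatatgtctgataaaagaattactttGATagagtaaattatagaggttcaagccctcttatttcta
mt-Tm (chrM:3845-3913, plus strand): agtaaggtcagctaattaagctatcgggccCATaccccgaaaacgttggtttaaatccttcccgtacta
mt-Tq (chrM:3772-3842, minus strand): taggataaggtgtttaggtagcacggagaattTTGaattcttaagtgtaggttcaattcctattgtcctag
The letters correspond to the tRNAs of proline (mt-Tp), asparagine (mt-Tn), cysteine (mt-Tc), glutamate (mt-Te), leucine (mt-Tl1), isoleucine (mt-Ti), methionine (mt-Tm) and glutamine (mt-Tq). The anticodon was placed as the matching triplet with the most base pairs in a flanking stem of 5, which reached 5 pairs except in mt-Tl1 with 4.

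In all 3 tissues a smaller share of the library lay on mitochondrial genes in BMT than in BM. In liver this share was 2.79, 2.77 and 3.08% in the BMT libraries, against 5.1, 5.26 and 4.22% in the BM libraries. In the libraries titled small intestine (code LI) it was 7.46, 7.28 and 6.24% in BMT, against 9.72, 10.2 and 10.7% in BM. In the libraries titled large intestine (code SI) it was 5.61, 4.83 and 6.01% in BMT, against 8.63, 8.38 and 7.3% in BM. The arms did not overlap in any tissue. The means were 2.88 ± 0.174% in BMT and 4.86 ± 0.562% in BM liver, 6.99 ± 0.655% and 10.2 ± 0.504% in BMT and BM under code LI, and 5.48 ± 0.602% and 8.1 ± 0.703% in BMT and BM under code SI (SD, n = 3 each). The BMT means were 40.7, 31.5 and 32.3% below the BM means in liver, code LI and code SI. The exact two-sided permutation test gave p = 0.1 in each tissue, which is the smallest that 3 against 3 libraries allow. Within lane 2 alone the BMT means were 43.3, 27.8 and 28.3% lower in the same order, and lane 1 holds too few libraries for a value. With the 100 most abundant nuclear genes left out of the denominator, the BMT means were 28.1, 30.8 and 33.1% lower in liver, code LI and code SI. In liver the difference was thus smaller than with all counts. In bulk samples, fewer cells of a type with many mitochondria, less mitochondrial RNA per cell and more counts on nuclear genes cannot be told apart.

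**Figure D2:**
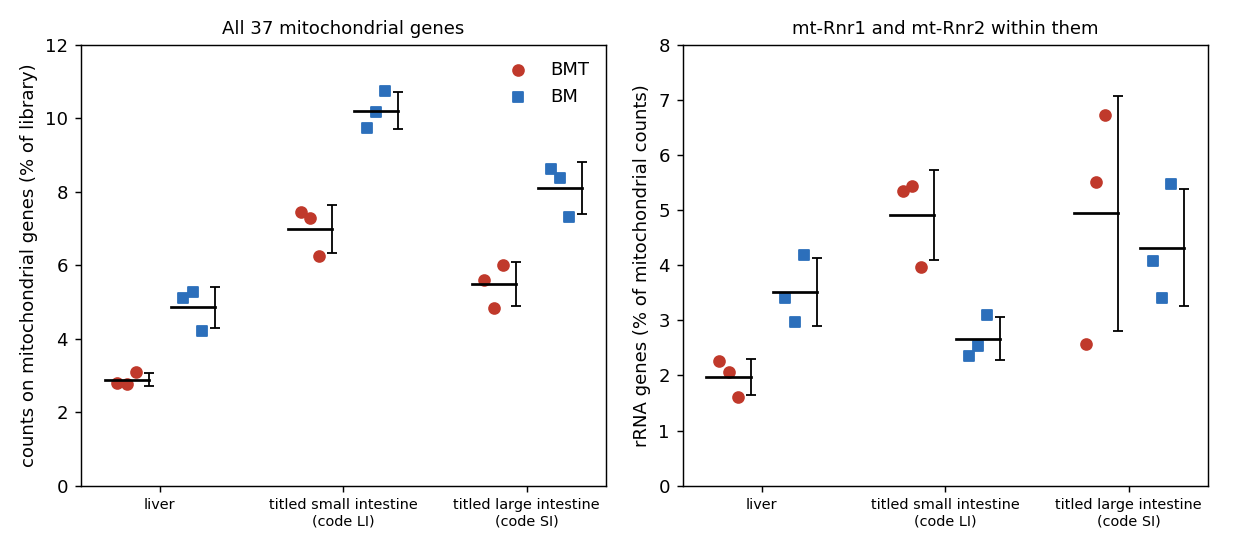
Share of library counts on the 37 mitochondrial genes (left, %) and share of those counts on the 2 rRNA genes (right, %), by tissue and arm, with a point per library, lines at group means and bars of 1 SD. On the left the BMT points lie below the BM points in each tissue, and on the right they lie below in liver, above under code LI and overlap under code SI.

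Markers of blood cells and of epithelium moved with the arms. The summed level of 12 T cell markers, all 12 of them called higher in BMT in each tissue (where 7.46%, 20.4% and 11.6% of all genes were, in liver, code LI and code SI), was 69.4 to 70.7 CPM in BMT and 4.43 to 9 CPM in BM liver, 366 to 586 and 6.93 to 9.06 CPM in BMT and BM under code LI, and 189 to 285 and 4.39 to 13.8 CPM in BMT and BM under code SI. Cd5 was at 0 in BM under code LI. Cd4 averaged 0.034 CPM in BM under code LI, Cd2 0.017 CPM in BM under code SI and the neutrophil marker Mpo 0.136 CPM in BM liver. Such genes passed the filter on low counts only through the arm where they were high. No count of blood cell markers called is therefore read as support. The summed level of 10 neutrophil markers was 139 to 595 CPM in BMT and 13.5 to 18.8 CPM in BM liver, 663 to 1391 and 71.9 to 79.4 CPM in BMT and BM under code LI, and 8.4 to 19.3 and 1.72 to 2.82 CPM in BMT and BM under code SI. All 10 of them were called higher in BMT liver, with 4 of 4 tested under code LI and 2 of 4 under code SI. In BM libraries Camp and Prtn3 were at 0 under code LI, and Camp, Prtn3, Elane and Mpo under code SI. Under code LI the neutrophil sums were mostly Ly6g, at means of 1024.4 CPM (BMT) and 74.95 CPM (BM). The means of the sums there were 1038 CPM in BMT and 75.8 CPM in BM. These code LI sums are therefore not read as an amount of neutrophils, and which cells carried Ly6g was not tested. The 7 erythroid markers summed to 9.86 to 37.6 CPM in BMT and 91.9 to 122 CPM in BM liver, where 5 of 6 tested were called lower in BMT, against 3.35% of all genes. They summed to 0.62 to 1.35 and 0.976 to 6.21 CPM in BMT and BM under code LI, and 0.425 to 2.53 and 4.75 to 30 CPM in BMT and BM under code SI, where 0 of 1 and 3 of 3 tested were called lower, against 21% and 11.8% of all genes, and Slc4a1 was at 0 in BMT under code SI. The 9 monocyte and macrophage markers summed to 311 to 374 CPM in BMT and 177 to 221 CPM in BM liver, 93.9 to 147 and 39.4 to 42.1 CPM in BMT and BM under code LI, and 30.7 to 41.2 and 17.6 to 27.1 CPM in BMT and BM under code SI. Of those tested 6 of 9 were called higher in liver and 6 of 7 under code LI, while under code SI 2 were higher and 1 lower of 7. Clec4f, the Kupffer cell marker among them, was at 0 in both arms under code LI and in BM under code SI. The 8 epithelium markers summed to 21702 to 26946 and 16072 to 18260.4 CPM in BMT and BM under code LI, and 20928 to 22129.8 and 16506 to 18194 CPM in BMT and BM under code SI, with no overlap of the arms, and 5 of 8 and 3 of 8 were called higher. The 6 stroma markers summed to 185 to 210.1 CPM in BMT and 147 to 203 CPM in BM liver, 72.7 to 115 and 12.5 to 15.4 CPM in BMT and BM under code LI, and 32.1 to 51.3 and 11 to 23.5 CPM in BMT and BM under code SI, with 3 of 6, 1 of 5 and 1 of 4 tested called higher in liver, code LI and code SI. In both intestinal sets the marker called was Vim, at means of 88.0 (BMT) and 5.53 CPM (BM) under code LI and 38.1 and 9.37 CPM under code SI. The log2 fold changes of 4 of 5 tested under code LI and 3 of 4 under code SI were negative, so the higher intestinal sums are those of Vim. The part of these cells in the mitochondrial values was not tested.

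The 13 mRNA genes made up 92.9 to 97.9% of mitochondrial counts in every library, and mt-Co1 was the largest single part. It held 37.5 ± 1.02% of mitochondrial counts in BMT liver and 40.1 ± 0.656% in BM liver, 60.3 ± 0.538% (BMT) and 63 ± 1.27% (BM) under code LI, and 50.5 ± 2.86% (BMT) and 50.9 ± 0.121% (BM) under code SI (SD, n = 3 each). By mean CPM it ranked 5 among all genes in liver and 1 in both intestinal sets. Per length, in transcripts per 1000000 (TPM), mt-Co1 averaged 70284 TPM in BMT and 107239 TPM in BM under code LI, where mt-Nd1 averaged 18776 and 23814 TPM and mt-Cytb 17616 and 28492 TPM in BMT and BM. mt-Nd2, mt-Nd4, mt-Nd5 and mt-Nd6 followed, at 3761 to 7399 TPM in BMT and 5969 to 7799 TPM in BM of the same set.

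In liver, both rRNA genes and the reads on mt-Co2, mt-Co3 and mt-Atp6 were lower in BMT than in BM. Of 29 mitochondrial genes tested, 9 fell and 0 rose (edgeR quasi-likelihood test, Benjamini-Hochberg adjusted p under 0.05), where 3.35% of all 14134 genes tested fell. Without adjustment 17 of the 29 were lower and 0 higher at p under 0.05, a threshold for which no share over all genes is given. DESeq2 called 13 of 34 mitochondrial genes lower and 0 higher, where 718 of all 26223 genes fitted were lower. All 29 log2 fold changes were negative, as were 52.2% of those of all genes, with a median of -0.77 against -0.022 over all genes tested. The CPM values of 21 genes lay lower in every BMT library than in any BM library, as did those of 28% of all genes tested. The number called rests on single libraries: it was 18 without BM replicate 3, and from 2 to 6 without each of the other libraries in turn. Over all genes those called lower moved too, to 1061 of 14519 without BM replicate 3 and 110 to 386 without the others. With library totals alone as the scale, the median of all genes moved to -0.20, that of the mitochondrial genes to -0.92, and 15 mitochondrial genes fell. On that scale 1183 of all 14134 genes fell in place of 473. In lane 2 alone 10 mitochondrial genes fell, where 378 of all 14224 genes did.

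Both rRNA genes fell in liver. mt-Rnr1, the small-subunit 12S rRNA of the mitochondrial ribosome (ENSMUSG00000064337.1, chromosome M, 70 to 1024, plus strand), had 341, 293 and 269.7 CPM in BMT, against 733, 765 and 1004 CPM in BM. mt-Rnr2, the large-subunit 16S rRNA (ENSMUSG00000064339.1, chromosome M, 1094 to 2675, plus strand), had 289, 277 and 227 CPM in BMT, against 999, 799 and 762 CPM in BM. The arms did not overlap for either gene. On the log2 scale mt-Rnr1 fell by 1.27 ± 0.18 (SE, adjusted p = 0.0062) and mt-Rnr2 by 1.51 ± 0.21 (adjusted p = 0.00559). Their share of mitochondrial counts was 2.26, 2.06 and 1.61% in BMT, against 3.4, 2.97 and 4.19% in BM. The libraries were selected for adenine tails.

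Among the mRNA genes of liver, mt-Co2, which encodes the subunit that takes electrons from cytochrome c, had 46.5, 44.4 and 53.8 CPM in BMT, against 88.1, 101 and 92.1 CPM in BM. mt-Co3, another core subunit of complex IV, had 68.5, 63.4 and 75.8 CPM in BMT, against 141, 147 and 136 CPM in BM, and mt-Atp6, the proton channel subunit of complex V, had 40.1, 34.4 and 42.4 CPM in BMT, against 78.4, 87.4 and 62.7 CPM in BM. In all 3 genes the BMT libraries lay below every BM library. They fell by 0.79 ± 0.13 (mt-Co2, adjusted p = 0.00997), 0.86 ± 0.13 (mt-Co3, adjusted p = 0.00793) and 0.80 ± 0.19 (mt-Atp6, adjusted p = 0.0328) on the log2 scale. These 3 are among the genes whose reads the nuclear copies share, so the copies are not read as a separate observation. Of the 7 copies 5 fell, against 3.35% of all genes tested. The log2 fold changes were Gm28661 -0.98 ± 0.11 (adjusted p = 0.00296), Gm28438 -1.13 ± 0.17 (adjusted p = 0.0071), Gm28437 -0.81 ± 0.14 (adjusted p = 0.0119), Gm29216 -0.64 ± 0.14 (adjusted p = 0.0252) and Gm10925 -0.80 ± 0.19 (adjusted p = 0.0358). Gm28439 at -0.82 ± 0.22 (adjusted p = 0.0554) and Gm10222 at -0.86 ± 0.27 (adjusted p = 0.087) did not pass.

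The mRNAs with the highest counts did not pass the test in liver, although their arms did not overlap. mt-Co1, the subunit of complex IV that reduces oxygen (ENSMUSG00000064351.1, chromosome M, 5328 to 6872, plus strand), had 10373, 10163 and 11915 CPM in BMT, against 20078, 21375 and 17013 CPM in BM, and its log2 fold change was -0.68 ± 0.24 (adjusted p = 0.116). mt-Cytb, the only mitochondrially encoded part of complex III, had 5047, 4865 and 5446 CPM in BMT, against 8564, 8995 and 6723 CPM in BM, with -0.50 ± 0.23 (adjusted p = 0.218). BM replicate 3, on lane 1, was the lowest BM library for both genes. Without it, mt-Co1 stood at -0.82 (adjusted p = 0.0263) and mt-Cytb at -0.66 (adjusted p = 0.038). The complex I genes were at mt-Nd1 -0.51 ± 0.19 (adjusted p = 0.141), mt-Nd2 -0.63 ± 0.25 (adjusted p = 0.164), mt-Nd3 -0.69 ± 0.20 (adjusted p = 0.0694) and mt-Nd4 -0.52 ± 0.20 (adjusted p = 0.14) on the log2 scale. The others were at mt-Nd4l -0.81 ± 0.38 (adjusted p = 0.225), mt-Nd5 -0.30 ± 0.21 (adjusted p = 0.42) and mt-Nd6 -0.20 ± 0.15 (adjusted p = 0.453), and mt-Atp8, the small partner of mt-Atp6, at -0.86 ± 0.30 (adjusted p = 0.118). mt-Nd6 is the only mRNA gene on the minus strand and had 1121, 1139.7 and 1203 CPM in BMT, against 1369.6, 1536 and 1594 CPM in BM. Its difference was the smallest among the 13 mRNA genes in liver.

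Of the liver tRNA genes, 14 of 22 were tested and 4 fell. mt-Tn had 14.4, 11.6 and 12.9 CPM in BMT, against 23.4, 22.2 and 30.6 CPM in BM and fell by 0.78 ± 0.16 (adjusted p = 0.0201). mt-Tc had 8.6, 6.28 and 7.17 CPM in BMT, against 12.9, 14 and 19.9 CPM in BM and fell by 0.89 ± 0.20 (adjusted p = 0.03). These neighbouring minus-strand genes had BMT values below every BM value. mt-Ti had 1.47, 1.46 and 0.991 CPM in BMT, against 4.93, 3.91 and 2.94 CPM in BM and fell by 1.41 ± 0.32 (adjusted p = 0.031). mt-Tq had 2, 4 and 2 counts in BMT, against 20, 17 and 10 counts in BM, and the BMT libraries are at or near the floor of 3 counts. It passed the filter on low counts only through its BM libraries, and although it is the other tRNA gene among the 4, and so among the 9 mitochondrial genes called, neither count is read as support. mt-Tp, the most counted tRNA gene, had 96.5, 91.8 and 102 CPM in BMT, against 128, 137 and 104 CPM in BM and did not pass, at -0.18 ± 0.17 (adjusted p = 0.543). mt-Te had 4.12, 7.49 and 4.62 CPM in BMT, against 14.7, 10.5 and 5.5 CPM in BM and likewise did not pass (-0.77 ± 0.40, adjusted p = 0.272).

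In the libraries titled small intestine (code LI), mRNA genes of complexes I, III, IV and V were lower in BMT while the 12S rRNA gene was higher. Of 27 mitochondrial genes tested, 9 fell, all of them mRNA genes, and 1 rose, mt-Rnr1, where 21% of all 14880 genes fell, 20.4% rose and 41.4% did either. Of the 27 log2 fold changes 20 were negative, against 49.9% of those of all genes. The share of mitochondrial genes that fell, 9 of 27, stands beside a background that is itself high in this tissue. The CPM values of 15 genes lay lower and those of 1 higher in every BMT library than in any BM library, against 28.3% and 25.2% of all genes. The median log2 fold change was -0.44, against 0.0018 over all genes tested. Leaving out each library in turn gave 5 to 11 genes that fell, with 5 without BM replicate 2, 6 without BMT replicate 2 and 11 without BMT replicate 3, the library on lane 1, which leaves lane 2 alone.

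Among the genes that passed the test, the largest falls were in 5 mRNA genes without a shared nuclear stretch, or with one in part. mt-Nd5, a proton-pumping subunit of complex I, had 3077, 2806 and 2653 CPM in BMT, against 5129, 4649 and 4411 CPM in BM. mt-Cytb had 7593, 8619 and 7272 CPM in BMT, against 12010, 13206 and 12742 CPM in BM, and mt-Nd6 had 824, 745 and 705 CPM in BMT, against 1311, 1144 and 1148 CPM in BM. Every BMT value was below every BM value for these genes. The log2 fold changes were mt-Nd5 -0.72 ± 0.13 (adjusted p = 0.00117), mt-Cytb -0.69 ± 0.13 (adjusted p = 0.00179), mt-Nd4 -0.68 ± 0.12 (adjusted p = 0.00126), mt-Nd6 -0.65 ± 0.12 (adjusted p = 0.00187) and mt-Co1 -0.60 ± 0.13 (adjusted p = 0.00464). mt-Co1 had 44785, 43659.6 and 38054 CPM in BMT, against 60444, 63284 and 69122 CPM in BM, again with no overlap. The reads on mt-Atp8 and on the genes shared with nuclear copies also fell, with log2 fold changes of mt-Atp8 -0.50 ± 0.15 (adjusted p = 0.0222), mt-Atp6 -0.49 ± 0.13 (adjusted p = 0.0124), mt-Co3 -0.47 ± 0.13 (adjusted p = 0.014) and mt-Co2 -0.34 ± 0.12 (adjusted p = 0.0479). Of the 7 nuclear copies 5 were called lower, against 21% of all genes, and since reads are shared this is not read as a separate observation. Those called were Gm28439 -0.60 ± 0.19 (adjusted p = 0.0248), Gm29216 -0.55 ± 0.12 (adjusted p = 0.00393), Gm10925 -0.53 ± 0.15 (adjusted p = 0.0139), Gm28437 -0.51 ± 0.13 (adjusted p = 0.00891) and Gm28661 -0.45 ± 0.14 (adjusted p = 0.0234). Gm10222 at -0.50 ± 0.21 (adjusted p = 0.0809) and Gm28438 at -0.45 ± 0.19 (adjusted p = 0.0784) were not called.

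The genes at the start of the heavy-strand transcript had other values. mt-Rnr1 had 1976, 2255 and 1143 CPM in BMT, against 908, 1027 and 1350.0 CPM in BM, and BMT replicates 1 and 2 were above every BM library while BMT replicate 3 lay among them. It rose by 0.70 ± 0.22 (adjusted p = 0.0274). mt-Rnr2 had 2011, 1697 and 1339.5 CPM in BMT, against 1387, 1555 and 1976 CPM in BM, with overlapping arms (0.039 ± 0.17, adjusted p = 0.878). Leaving out BM replicate 1 or 2, or BMT replicate 1 or 2, ended the call for mt-Rnr1. mt-Nd1 had 8178, 7020.3 and 5724 CPM in BMT, against 8579, 8955 and 8996 CPM in BM (-0.34 ± 0.14, adjusted p = 0.0789). mt-Nd2 had 3138, 3041 and 2769 CPM in BMT, against 3043, 3163 and 3218 CPM in BM (-0.067 ± 0.12, adjusted p = 0.687), and its arms differed less than those of any other mRNA gene of this set. The 2 remaining mRNA genes were at mt-Nd3 0.091 ± 0.17 (adjusted p = 0.704) and mt-Nd4l -0.44 ± 0.19 (adjusted p = 0.0827). Of 12 tRNA genes tested 0 passed, with 3 lower and 1 higher at an unadjusted p under 0.05, and mt-Tp had 209.5, 189 and 143 CPM in BMT, against 167, 194 and 219 CPM in BM (-0.10 ± 0.15, adjusted p = 0.63). mt-Tl1 had 5.77, 3.95 and 3.62 CPM in BMT, against 5.86, 6.33 and 6.48 CPM in BM (-0.48 ± 0.22, adjusted p = 0.106), mt-Tn 23.6, 17.8 and 17.6 CPM in BMT, against 16.4, 17.6 and 20.7 CPM in BM (0.12 ± 0.17, adjusted p = 0.611) and mt-Tc 14.3, 9.69 and 8.96 CPM in BMT, against 8.91, 11 and 11 CPM in BM (0.10 ± 0.21, adjusted p = 0.737).

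In the libraries titled large intestine (code SI), 4 mRNA genes from the later part of the heavy-strand transcript and from the minus strand fell in BMT, and 1 tRNA gene rose. These were mt-Cytb, mt-Nd4, mt-Nd5 and mt-Nd6, and mt-Tl1, out of 27 mitochondrial genes tested, where 11.8% of all 14621 genes fell and 11.6% rose. Of the 27 log2 fold changes 21 were negative, against 48% of those of all genes. The share that fell, 4 of 27, is near that background, and the count is not a result about the mitochondrial genes. The CPM values of 11 genes lay lower and those of 2 higher in every BMT library than in any BM library, against 22.9% and 16.3% of all genes. The median log2 fold change was -0.32, against 0.023 over all genes tested. Leaving out each library in turn gave 0 to 7 genes that fell: 7 without BMT replicate 3, 1 without BM replicate 2 or 3, and 0 when BM replicate 1 or either of BMT replicates 1 and 2 was left out. Without a low-count filter the count was 7 and with DESeq2-type size factors 2, and in lane 2 alone 0.

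mt-Nd6 had 670.1, 684 and 1018 CPM in BMT, against 2177, 1569.9 and 1309 CPM in BM, and fell by 1.04 ± 0.25 on the log2 scale (adjusted p = 0.0132). mt-Cytb had 7532, 5563 and 8799 CPM in BMT, against 13390.2, 13686 and 11233 CPM in BM, and fell by 0.75 ± 0.23 (adjusted p = 0.0368). The arms did not overlap for either gene, and BMT replicate 3 was the highest BMT library in both. mt-Nd5 and mt-Nd4, both subunits of the membrane arm of complex I, were at -0.69 ± 0.22 (adjusted p = 0.0464) and -0.68 ± 0.23 (adjusted p = 0.0491). mt-Co1 had 28727, 25575 and 28483 CPM in BMT, against 44068, 42587 and 37181 CPM in BM, with no overlap, and did not pass (-0.53 ± 0.21, adjusted p = 0.0966). The same held for mt-Co3, which had 151, 122 and 161 CPM in BMT, against 227, 192 and 213 CPM in BM (-0.49 ± 0.17, adjusted p = 0.0539). mt-Nd1 had 8509, 6207 and 6722 CPM in BMT, against 9391, 8398 and 6946 CPM in BM, with overlapping arms (-0.16 ± 0.21, adjusted p = 0.617). The other mRNA genes were at mt-Nd2 -0.15 ± 0.19 (adjusted p = 0.617), mt-Nd3 -0.43 ± 0.24 (adjusted p = 0.234), mt-Nd4l 0.041 ± 0.32 (adjusted p = 0.943), mt-Co2 -0.29 ± 0.17 (adjusted p = 0.246), mt-Atp6 -0.33 ± 0.19 (adjusted p = 0.232) and mt-Atp8 -0.37 ± 0.23 (adjusted p = 0.276).

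The rRNA genes varied widely among the BMT libraries under code SI. mt-Rnr1 had 636, 1297 and 1656 CPM in BMT, against 1552, 1253 and 1859.6 CPM in BM (-0.32 ± 0.31, adjusted p = 0.502), and mt-Rnr2 had 809.7, 1368 and 2386 CPM in BMT, against 1969, 1596 and 2141 CPM in BM (-0.26 ± 0.34, adjusted p = 0.623). BMT replicate 1 was the lowest library of the set for both, and the arms overlapped. mt-Tl1, which follows mt-Rnr2 with no gap, had 4.99, 2.62 and 4.97 CPM in BMT, against 1.14, 1.9 and 1.89 CPM in BM, with every BMT library above every BM library, and rose by 1.41 ± 0.34 (adjusted p = 0.0132). mt-Tp had 114, 147 and 139 CPM in BMT, against 209.8, 187 and 159 CPM in BM (-0.43 ± 0.17, adjusted p = 0.099), mt-Tn 13.7, 25.9 and 31.1 CPM in BMT, against 35, 31.8 and 31 CPM in BM (-0.41 ± 0.27, adjusted p = 0.301) and mt-Tc 7.8, 14.9 and 16.1 CPM in BMT, against 16.4, 16.1 and 13.8 CPM in BM (-0.20 ± 0.27, adjusted p = 0.629). Of the 7 nuclear copies 1 fell, Gm29216 -0.54 ± 0.17 (adjusted p = 0.0373), which is near the 11.8% of all genes that fell. The others were at Gm28438 -0.75 ± 0.26 (adjusted p = 0.0607), Gm28437 -0.54 ± 0.18 (adjusted p = 0.0502), Gm28439 -0.30 ± 0.20 (adjusted p = 0.313), Gm10925 -0.17 ± 0.20 (adjusted p = 0.574), Gm28661 -0.17 ± 0.18 (adjusted p = 0.532) and Gm10222 0.13 ± 0.29 (adjusted p = 0.786). Malat1, a nuclear-retained RNA, was also lower in BMT here, at -0.88 ± 0.28 (adjusted p = 0.0399), and its part in these values was not tested.

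**Figure D3:**
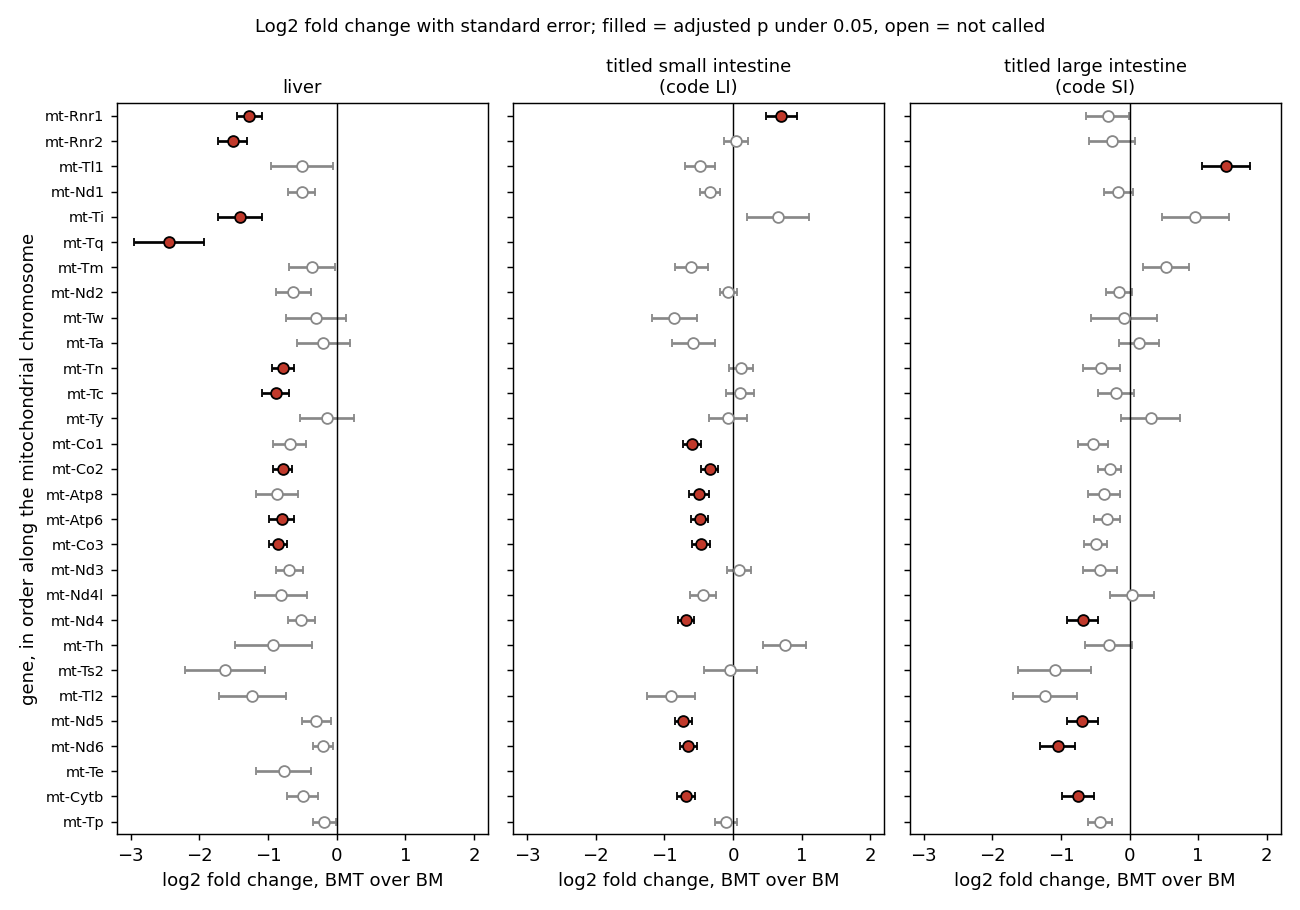
Log2 fold change of BMT over BM (x axis) for each tested mitochondrial gene in chromosome order (top to bottom), with bars of 1 standard error, filled where the edgeR adjusted p is under 0.05. All 29 liver points lie left of 0, the 2 rRNA genes at the top lie left of 0 in liver and at or right of 0 under code LI, and the called mRNA genes under code SI are mt-Nd4, mt-Nd5, mt-Nd6 and mt-Cytb.

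Whether the BMT effect differed between tissues was tested in 1 edgeR model over all 18 libraries with the mouse number as a term. Between liver and the libraries titled small intestine (code LI), 3 of 29 mitochondrial genes differed, where 18.8% of 17275 genes did. The rRNA genes were lower in the liver effect than in the code LI effect, by -1.94 ± 0.46, adjusted p = 0.00924 for mt-Rnr1, and by -1.51 ± 0.49, adjusted p = 0.0445 for mt-Rnr2, on the log2 scale. mt-Ti, the isoleucine tRNA, differed by -1.99 ± 0.66, adjusted p = 0.0491. Its intestinal counts were few: 20, 18 and 12 in BMT and 8, 5 and 20 in BM under code LI. Under code SI they were 10, 27 and 30 in BMT and 18, 10 and 6 in BM, and the arms overlapped in both sets. Between liver and the libraries titled large intestine (code SI), 2 genes differed, against 15% of all genes, mt-Ti by -2.39 ± 0.65, adjusted p = 0.0233, and mt-Tl1 by -1.85 ± 0.54, adjusted p = 0.0315. Between the intestinal sets, code LI over code SI, only mt-Tl1 differed, by -1.91 ± 0.49, adjusted p = 0.0368, against 4.91% of all genes. The effects on the 13 mRNA genes did not pass in these 3 comparisons, and a difference that misses the threshold does not show that the effects were alike. The comparisons share libraries, and none of the shares of mitochondrial genes that differed is above the background.

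Complexes I, III, IV and V are built from subunits of both genomes, and their summed levels per length were set against each other. The nuclear genes numbered 72, among them Atpif1, an inhibitor of complex V rather than a subunit. The 13 mitochondrial mRNA genes over these gave TPM ratios of 3.83, 4.11 and 4.12 in BMT liver, against 5.47, 5.41 and 4.09 in BM liver, with BM replicate 3 below 2 of the BMT libraries. Under code LI the ratios were 5.05, 4.28 and 3.41 in BMT, against 5.67, 5.3 and 6.14 in BM. Under code SI they were 3.78, 2.96 and 3.8 in BMT, against 5.68, 6.45 and 5.31 in BM. In both intestinal sets every BMT library was below every BM library. The differences in mean log2 ratio were -0.30 (exact two-sided permutation p = 0.3), -0.44 (p = 0.1) and -0.73 (p = 0.1) in liver, code LI and code SI, with 0.1 the smallest p that this exact test allows. In liver both sums were lower in BMT, at 54279.8 and 88712 TPM for mitochondrial genes in BMT and BM and 13507 and 17861 TPM for nuclear genes in BMT and BM. Under code SI the mitochondrial sum was 104364 TPM in BMT and 134913 TPM in BM, while the nuclear sum was the higher one in BMT, at 29738 against 23265 TPM. Under code LI the nuclear sums were 30514 TPM in BMT and 33238 TPM in BM, and overlapped.

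By complex, the log2 ratio of complex III, in which mt-Cytb stands against 9 nuclear genes, differed by -1.05 under code SI, -0.60 under code LI and -0.25 in liver. Complex IV differed by -0.71, -0.40 and -0.50 in the same order, and complex I by -0.57, -0.26 and -0.20. All of these were negative, with exact two-sided permutation p-values from 0.1 to 0.4. Complex V, whose mt-Atp6 shares its reads with a nuclear copy, stood at -0.61, -0.48 and -0.52. The same limit holds for mt-Co2 and mt-Co3 in complex IV and for mt-Nd3 and mt-Nd4l in complex I. The mitochondrial sum of complex IV is mostly mt-Co1, with 70284 of 71360 TPM in BMT under code LI.

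**Figure D4:**
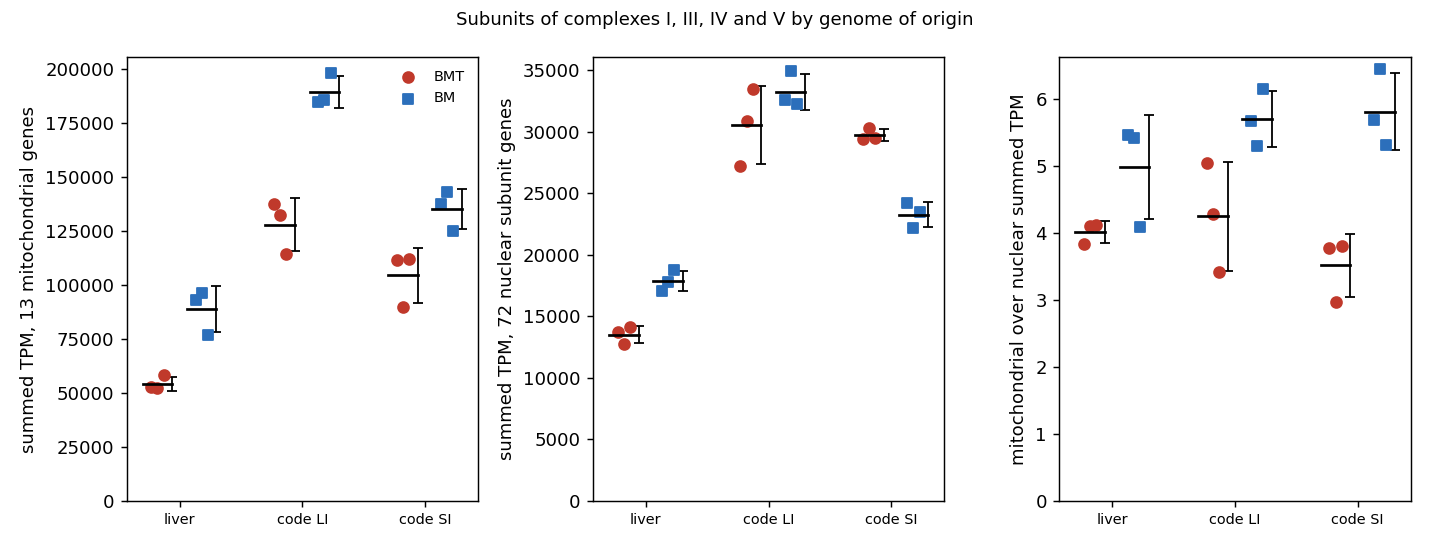
Summed TPM of the 13 mitochondrial mRNA genes (left), of 72 nuclear genes listed for the same complexes (middle) and their ratio (right), by tissue and arm, with a point per library, lines at means and bars of 1 SD. The mitochondrial sum is lower in BMT in all 3 tissues, while the nuclear sum is lower in BMT liver (13507 against 17861 TPM in BM) and higher in BMT under code SI (29738 against 23265 TPM in BM).

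Nuclear genes that serve the mitochondrial genome were counted by role. In liver 3.35% of all genes tested fell and 7.46% rose. Few list genes were called lower, with 7 in the ribosomal protein list and 2 or fewer in each of the others. As parts of their lists, those of the ribosomal protein, import, transcription, RNA processing and citric acid cycle lists exceed the share that fell. With a library left out, the genes called lower over all lists numbered 2 to 34, and no count is read as a result about a list. In liver, the transcription list had 1 lower and 0 higher of 11 tested, RNA processing and stability 2 lower and 0 higher of 27, translation factors 0 lower and 0 higher of 12 and ribosomal proteins 7 lower and 0 higher of 69, with list medians of -0.10, -0.31, -0.16 and -0.32. Trmt10c, a subunit of the enzyme that cuts the 5′ end of mitochondrial tRNAs, had the smallest p of its list (-0.75 ± 0.12, adjusted p = 0.00787), with Fastkd2, which binds the 16S rRNA (-0.54 ± 0.14, adjusted p = 0.0491). The ribosomal protein genes with the smallest p were Mrps35 (-0.77 ± 0.12, adjusted p = 0.00752) and Mrpl14 (-0.70 ± 0.12, adjusted p = 0.0117). Of the complex I, II, III, IV and V lists, 1 gene fell, Ndufa6 -0.50 ± 0.13 (adjusted p = 0.0486), and 0 rose of 76. In CPM, every BMT library lay below every BM library for 29 of 36 complex I and 4 of 4 complex II genes. The same held for 9 of 9 genes of complex III, 9 of 11 of complex IV and 13 of 16 of complex V. For ribosomal proteins it held for 49 of 69, against 28% of all genes, and 0 genes of these lists lay above. This separation of the arms, seen in 21 of 29 mitochondrial genes, was thus not particular to them. The replication list had 0 lower and 0 higher of 16 tested, and regulators of biogenesis 0 lower and 0 higher of 11. The citric acid cycle had 1 lower and 0 higher of 13 (Idh3b -0.48 ± 0.12, adjusted p = 0.0403), outer membrane and import 2 lower and 0 higher of 16 (Timm44 -0.47 ± 0.12, adjusted p = 0.0398, and Tomm5 -0.50 ± 0.13, adjusted p = 0.0444), and chaperones and proteases 0 lower and 0 higher of 12. The transcription gene called was 1700021F05Rik (-0.49 ± 0.13, adjusted p = 0.0486). With library totals as the scale, 70 genes of these lists fell in liver in place of 14.

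Under code LI 21% of all genes tested fell and 20.4% rose. The ribosomal protein and subunit lists held smaller shares of calls in both directions, and no count is read as a result about a list. The transcription list had 4 lower and 0 higher of 11 tested, with Mterf2 -0.91 ± 0.23 (adjusted p = 0.0093) and Tfb2m -0.68 ± 0.20 (adjusted p = 0.0188), Tfb2m being a factor that opens mitochondrial promoters. RNA processing had 3 lower and 2 higher of 27, with Fastkd1 -1.02 ± 0.14 (adjusted p = 0.00022) and Hsd17b10 -0.63 ± 0.12 (adjusted p = 0.00224), another subunit of the tRNA-cutting enzyme. Translation factors had 5 lower and 1 higher of 12, with Mtif2 -0.57 ± 0.14 (adjusted p = 0.00831) and Guf1 -0.64 ± 0.19 (adjusted p = 0.0182), and ribosomal proteins 1 lower and 3 higher of 69, with Mrpl20 0.65 ± 0.12 (adjusted p = 0.00171) and Mrps7 0.52 ± 0.12 (adjusted p = 0.00642). The replication list had 3 lower and 2 higher of 16, with Polg2, the accessory subunit of the mitochondrial DNA polymerase, at -1.06 ± 0.18 (adjusted p = 0.000923) and Samhd1, a nucleotide hydrolase, at 1.49 ± 0.13 (adjusted p = 1.07e-05). Regulators of biogenesis had 3 lower and 3 higher of 11, with Ppara -1.60 ± 0.24 (adjusted p = 0.000391) and Esrrg -1.52 ± 0.24 (adjusted p = 0.000556). The subunit lists had 6 lower and 0 higher of 76, among them Ndufa1 -0.63 ± 0.12 (adjusted p = 0.00248), Ndufa7 -0.52 ± 0.18 (adjusted p = 0.0384), Cox6c -0.60 ± 0.13 (adjusted p = 0.004), Cox7b -0.34 ± 0.12 (adjusted p = 0.043) and Sdha -0.37 ± 0.13 (adjusted p = 0.039). Atpif1, an inhibitor of complex V kept in its list, was at -0.66 ± 0.13 (adjusted p = 0.00247). Outer membrane and import had 1 lower and 7 higher of 16 (Tomm40 0.70 ± 0.12, adjusted p = 0.00113, and Timm50 0.59 ± 0.12, adjusted p = 0.00326). The citric acid cycle had 4 lower and 1 higher of 13 (Suclg2 -1.18 ± 0.11, adjusted p = 2.21e-05, and Cs 0.59 ± 0.15, adjusted p = 0.00862) and chaperones and proteases 2 lower and 2 higher of 12 (Htra2 0.97 ± 0.15, adjusted p = 0.000618, and Hspe1 0.51 ± 0.14, adjusted p = 0.0143).

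Under code SI 11.8% of all genes tested fell and 11.6% rose. The subunit and ribosomal protein lists held smaller shares of calls in both directions, the RNA processing list is near the share that fell, and no count is read as a result about a list. The citric acid cycle had 0 lower and 6 higher of 13 tested, with Cs, citrate synthase, at 1.03 ± 0.16 (adjusted p = 0.000828). The subunit lists had 0 lower and 5 higher of 76, with Uqcrq 0.71 ± 0.16 (adjusted p = 0.0083), Ndufb6 0.57 ± 0.17 (adjusted p = 0.0328), Ndufs1 0.49 ± 0.15 (adjusted p = 0.0346) and Atp5f1 0.50 ± 0.16 (adjusted p = 0.0469). Outer membrane and import had 0 lower and 4 higher of 16, with Vdac2 0.71 ± 0.15 (adjusted p = 0.0064) and Tomm40 0.77 ± 0.19 (adjusted p = 0.0129). The ribosomal protein list had 1 lower and 4 higher of 69, with Mrpl20 0.88 ± 0.20 (adjusted p = 0.00891) and Mrps36, there by its name only, 0.73 ± 0.15 (adjusted p = 0.0053). RNA processing had 3 lower and 0 higher of 27, with 1110008L16Rik -0.80 ± 0.16 (adjusted p = 0.00537) and Mrm1 -0.84 ± 0.20 (adjusted p = 0.0103), and the replication list 3 lower and 1 higher of 16, with Twnk, the mitochondrial DNA helicase, at -0.78 ± 0.18 (adjusted p = 0.00961) and Samhd1 at 1.74 ± 0.17 (adjusted p = 5.27e-05). Transcription had 0 lower and 0 higher of 11, biogenesis regulators 0 lower and 0 higher of 11, translation factors 0 lower and 1 higher of 12 (Gfm1 0.69 ± 0.14, adjusted p = 0.00505) and chaperones and proteases 0 lower and 1 higher of 12 (Hspd1 0.52 ± 0.17, adjusted p = 0.043).

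The best known regulators of mitochondrial transcription and RNA were followed whatever their result. Polrmt, the mitochondrial RNA polymerase, was at 0.00032 ± 0.12 in liver, -0.09 ± 0.16 under code LI and -0.051 ± 0.17 under code SI (adjusted p = 0.999, 0.691 and 0.858). Its sign in liver turns with the scaling. Tfam, which packages the mitochondrial DNA and starts its transcription, was at -0.25 ± 0.11, -0.35 ± 0.17 and -0.22 ± 0.18 (adjusted p = 0.207, 0.121 and 0.397). Lrpprc, which stabilises the mitochondrial mRNAs, was at -0.20 ± 0.14, -0.024 ± 0.13 and 0.16 ± 0.14 (adjusted p = 0.425, 0.904 and 0.457). None of these 3 passed in any tissue. Ppargc1a, a coactivator of mitochondrial biogenesis, fell under code LI (-1.04 ± 0.21, adjusted p = 0.00301) and did not pass in liver (0.61 ± 0.22, adjusted p = 0.122) or under code SI (0.41 ± 0.28, adjusted p = 0.333).

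The tissues also differed from each other, within mice. The mitochondrial share of liver was below that of both intestinal sets in all 6 mice, with mean log2 differences of -1.18 ± 0.23 from code LI and -0.83 ± 0.13 from code SI (SD over mice), and the code LI share was above that of code SI in 6 of 6 mice, by 0.34 ± 0.21. The exact two-sided sign-flip permutation test gave p = 0.031 for each, the smallest that 6 mice allow, and Benjamini-Hochberg adjustment over the 3 comparisons left it at 0.031. In a contrast of tissue levels added after the values were seen, in the 18-library edgeR model, 11 mitochondrial genes were higher and 6 lower in liver than under code LI, against 38.3 and 38.6% of all genes. Against code SI, 10 were higher and 2 lower in liver, against 38.3 and 39% of all genes. Code LI against code SI gave 4 higher and 1 lower, against 16.3 and 16.2%. The liver splits depend on the scaling. With library totals as the scale, also added after the values were seen, 4 were higher and 18 lower in liver than under code LI, and 3 higher and 17 lower than under code SI. The median over the 29 genes was -0.78 (code LI) and -0.58 (code SI) on that scale, against 0.041 and 0.23 with TMM.

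mt-Te, the glutamate tRNA shown above, is described by its values only, since it passed the filter on low counts, and met the level of 5 CPM, only through liver. Its liver values of 4.12, 7.49 and 4.62 CPM in BMT and 14.7, 10.5 and 5.5 CPM in BM stand against 0.358, 0.0898 and 0.143 CPM (BMT) and 0.255, 0.0898 and 0.312 CPM (BM) under code LI. Under code SI it had 0.106, 0.343 and 0.857 CPM in BMT and 0.182, 0.498 and 0.358 CPM in BM. No liver library overlapped an intestinal one, and several intestinal values are at or near the floor of 3 counts. It is among the genes counted above as higher in liver, and those counts are not read as support. mt-Te ends on the base before mt-Nd6 begins in the direction of transcription, and mt-Nd6 stood higher in liver with TMM, by 1.29 ± 0.16, adjusted p = 3.45e-06 over code LI and 1.01 ± 0.16, adjusted p = 4.22e-05 over code SI. With library totals it stood at 0.47 (adjusted p = 0.00918) and 0.21 (adjusted p = 0.203), and the call against code SI was lost.

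Of the plus-strand tRNA genes between mt-Nd1 and mt-Nd2, mt-Ti was higher by 2.71 ± 0.33, adjusted p = 2.06e-06 over code LI and 2.44 ± 0.32, adjusted p = 5.22e-06 over code SI, and with library totals by 1.89 (adjusted p = 3.99e-05) and 1.64 (adjusted p = 0.000138). Its BMT liver libraries still overlap the BMT libraries under code SI in CPM. mt-Tm, which reads the start codon, had 2.12, 2.92 and 3.26 CPM in BMT and 4.53, 4.86 and 2.38 CPM in BM liver, 2.15, 2.29 and 1.62 CPM (BMT) and 2.8, 3.28 and 3.2 CPM (BM) under code LI, and 1.01, 0.987 and 1.11 CPM (BMT) and 0.818, 0.679 and 0.716 CPM (BM) under code SI. It was higher in liver by 1.19 ± 0.20, adjusted p = 6.38e-05 over code LI and 2.69 ± 0.22, adjusted p = 2.08e-08 over code SI, and higher under code LI than under code SI by 1.51 ± 0.22, adjusted p = 8.34e-05. With library totals liver stood at 0.37 (adjusted p = 0.103) over code LI, where the call was lost, and 1.89 (adjusted p = 8.03e-07) over code SI. mt-Nd2, directly after it, stood higher in liver by 1.17 ± 0.19, adjusted p = 3.57e-05 and 0.90 ± 0.18, adjusted p = 0.000383, and with library totals by 0.34 (adjusted p = 0.0484) and 0.092 (adjusted p = 0.586), without a call against code SI. On the log2 scale mt-Rnr2 in liver stood at -0.97 ± 0.25, adjusted p = 0.0022 and -1.0 ± 0.25, adjusted p = 0.00192, and mt-Co1 at -1.03 ± 0.27, adjusted p = 0.00282 and -0.41 ± 0.27, adjusted p = 0.172, against code LI and code SI in that order. With library totals mt-Rnr2 stood at -1.80 (adjusted p = 1.61e-06) and -1.81 (adjusted p = 1.67e-06), and mt-Co1 at -1.85 (adjusted p = 4.41e-07) and -1.22 (adjusted p = 3.85e-05). These values come from tissues processed in different ways, bulk liver against isolated epithelial cells, and tissue and preparation cannot be told apart.

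**Figure D5:**
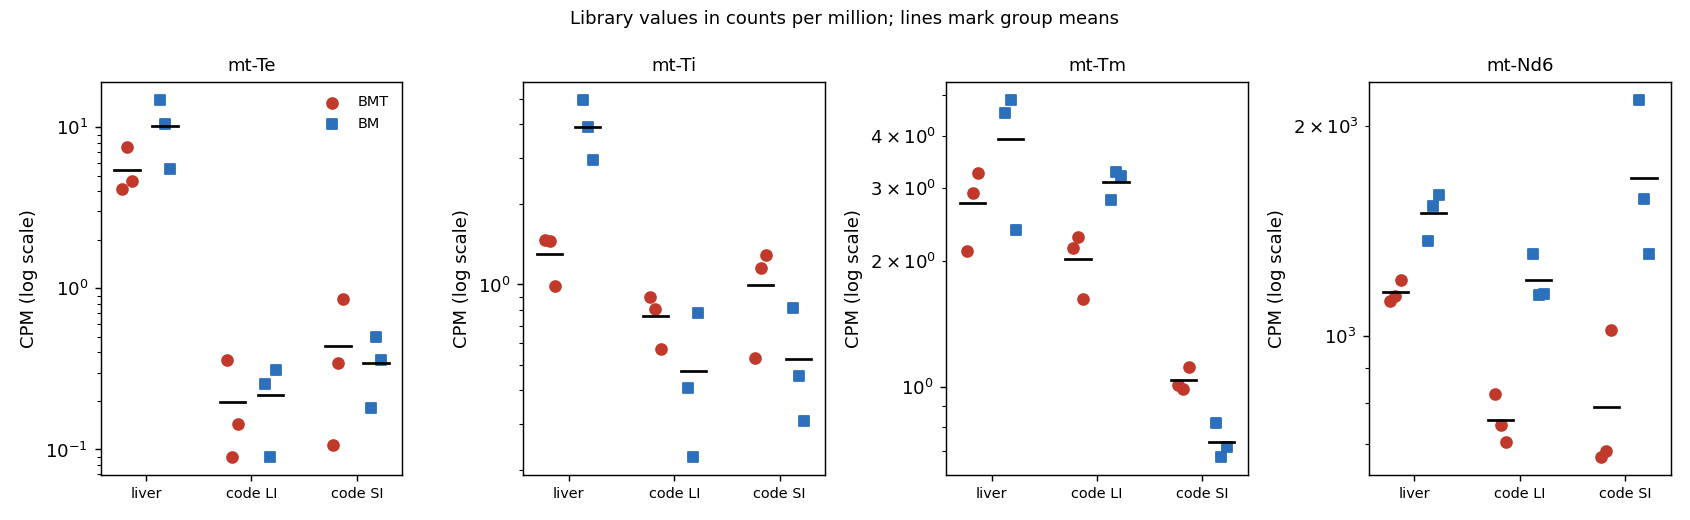
Library values in CPM (log scale) of mt-Te, mt-Ti, mt-Tm and mt-Nd6 by tissue and arm, with a point per library and lines at group means. The liver points of mt-Te, from 4.12 to 14.7 CPM, lie above every intestinal point, the highest of which is 0.857 CPM.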

How the data were processed

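Bulk mRNA libraries were prepared from 500 ng of RNA (RIN 7.2 to 10) with 8 PCR cycles and sequenced as paired reads of 100 bases, per the labels' protocols. The submitters' processing notes name FastQC 0.11.9, STAR 2.7.0e, featureCounts 1.6.3 and GRCm38.p5. The authors deposited raw counts per gene for all 18 samples. Neither the strand setting nor the handling of multi-mapped reads is known from the labels.

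CPM used library totals. TPM used the lengths in the deposited table. Each tissue was fitted alone, BMT against BM, over all genes that passed edgeR's filterByExpr, with TMM scaling, the quasi-likelihood test and Benjamini-Hochberg adjustment (R 4.3.3, edgeR 4.0.16). Differences between tissues came from 1 edgeR model of 18 libraries with a term for each mouse. Single values were tested by exact permutation over samples (scipy 1.17.1). The procedure was tested on simulated data. Depth was 18845483 to 25610937 counts. Alternatives were DESeq2 1.42.0, other scalings, no filter, a replicate block, lane 2 alone and each library left out.

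The members and lists were chosen with earlier results of these data known. Named were all mRNA and rRNA genes, tRNA genes with a mean of at least 5 CPM in a tissue, the 2 called members of each nuclear list with the smallest p, 4 regulators and the 7 nuclear copies. A gene that this rule names is not reported here. Names came from GENCODE M21, which named 53274 gene IDs and left 105 unnamed, and whose positions matched all 37 mitochondrial genes. Of the list symbols 354 matched and 1 did not.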

Additional observations from a re-analysis of the deposited data

Results flagged for a closer look

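The effect of BMT differed between tissues, by the edgeR test of the difference over 18 libraries, for 4 mitochondrial genes, in 6 differences. The log2 fold change in liver minus that in the libraries titled small intestine (code LI) was -1.94 for mt-Rnr1, -1.51 for mt-Rnr2 and -1.99 for mt-Ti. The liver value minus that of the libraries titled large intestine (code SI) was -2.39 for mt-Ti and -1.85 for mt-Tl1. The code LI value minus the code SI value was -1.91 for mt-Tl1. Over all 17275 genes, 18.8, 15 and 4.91% differed in these comparisons, in the same order. None of the shares of the 29 mitochondrial genes is above this background, so the counts are not a result about them.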

How the results depend on the processing

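The share of counts on mitochondrial genes was lower in BMT in each tissue under every alternative denominator, lane and left-out library that was run. The number of mitochondrial genes called lower in liver was 9, and 15 with library totals as the scale, where 473 and 1183 of all 14134 genes were. In the libraries titled large intestine (code SI) it was 4, and 2 with DESeq2-type size factors, 7 without a low-count filter and 0 in lane 2 alone. Over all genes those called lower there numbered 1720, 1693, 2190 and 1512 in the same order. Genes of the nuclear lists called lower in liver numbered 14, and 70 with library totals, 24 with DESeq2, 7 without a filter and 5 in lane 2 alone, while those called higher numbered 0, and 1 with DESeq2 or without a filter. The sign of Polrmt in liver turned to -0.00020 with DESeq2-type size factors, -0.00097 with TMM over nuclear genes, -0.18 with library totals, -0.010 with DESeq2, -0.015 without a filter and -0.035 in lane 2. In the libraries titled small intestine (code LI), Lrpprc turned to 0.00058 with TMM over nuclear genes and 0.065 in lane 2, and mt-Tp to 0.014 in lane 2. Under code SI mt-Nd4l turned to -0.015 with library totals. With library totals, the BMT effect of liver differed from that of code LI for 6 mitochondrial genes in place of 3, and for 3188 of all 17275 genes in place of 3242. The liver against intestine splits of tissue levels also turned with that scale, as given with those values. The cause was not tested for any of these.

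The replicate numbers of the titles did not pair the libraries: same-numbered deviations correlated at 0.24, -0.039 and 0.42 in liver, 0.061, -0.13 and -0.22 under code LI, and -0.072, -0.14 and 0.11 under code SI. With the replicate block, 9, 7 and 3 mitochondrial genes were called lower in liver, code LI and code SI, and 0 higher under code LI in place of 1. Nuclear-list genes called lower numbered 7 in liver and 21 in place of 32 under code LI, and 1 was called higher in liver.

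Leaving out each library in turn gave these ranges. In liver 2 to 18 mitochondrial genes, 569 to 2617 of all genes and 2 to 34 nuclear-list genes (lower) were called, and Polrmt lay between -0.064 and 0.041. Under code LI 5 to 11 mitochondrial genes were called lower and 0 to 1 higher, with 15 to 48 nuclear-list genes lower and 10 to 31 higher. There mt-Rnr2 lay between -0.086 and 0.22, mt-Tc between -0.11 and 0.23, mt-Tn between -0.0081 and 0.24, mt-Tp between -0.21 and 0.019, Lrpprc between -0.11 and 0.065 and Polrmt between -0.22 and 0.0063. Under code SI 0 to 7 mitochondrial genes were called lower and 0 to 1 higher, 2086 to 3775 of all genes were called, and 2 to 8 nuclear-list genes were lower and 8 to 32 higher. There mt-Rnr1 lay between -0.67 and 0.0012, mt-Rnr2 between -0.79 and 0.063, mt-Nd4l between -0.22 and 0.26, mt-Tc between -0.42 and 0.075, Gm10222 between -0.098 and 0.35, Polrmt between -0.20 and 0.036 and Ppargc1a between -0.0073 and 0.58.

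With 3 libraries an arm, calls near the threshold rest on single libraries. The 7 tRNA genes with at most 3 counts in any library hold too few counts to be compared, and the cause of their low counts was not tested. Mouse pairing across tissues rests on the descriptions, since same-numbered deviations correlated at -0.14 to 0.28.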
